A study of Mus musculus with 12 samples.

Results

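The levels of 9 genes of interneurons that arise in the medial ganglionic eminence were followed in the embryonic mouse striatum with and without Foxp1: the transcription factors Lhx6, Lhx8, Nkx2-1 and Maf, the chemokine receptors Cxcr4 and Ackr3, the neuregulin receptor Erbb4, and the neuropeptides Sst and Npy. They were chosen by name, and all 9 of the 9 listed genes had a probe set among the 25428 on the array, of which 24674 carried a gene symbol. The tissue was the striatum of both hemispheres of C57BL/6J embryos at embryonic day 18.5, hybridised as 1 array per embryo. The 6 WT embryos were wild type, and the 6 embryos called cKO here carried the genotype Nestin-Cre (Foxp1-/-). Nestin-driven Cre acts in neural progenitors throughout the nervous system, so in such a model the cells that enter the striatum from other regions can lose Foxp1 as well. The deleted part of Foxp1, the sex of the embryos and whether the WT embryos carried Cre are not in the labels. The titles describe the arrays of a group as biological replicates.

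The medial ganglionic eminence, below the embryonic striatum, produces most interneurons of the striatum and many of the cortex, together with neurons of the globus pallidus and the cholinergic neurons of the basal forebrain. Nkx2-1 specifies this region and switches on Lhx6, which is kept in GABAergic interneurons, while Lhx8 is needed for the cholinergic lineage. Migrating interneurons follow the chemokine Cxcl12 through the receptors Cxcr4 and Ackr3, and neuregulins through the receptor tyrosine kinase Erbb4. Maf acts later in the same lineage, and Sst and Npy encode peptides of mature striatal interneurons. None of these genes is limited to interneurons in the developing forebrain: Cxcr4 and Ackr3 are also found in blood vessels, and Erbb4 in other migrating neurons.

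Of the 9 genes, Maf rose and Cxcr4 fell in cKO, while the other 7 did not pass the test. Values are RMA expression on the log2 scale, where a difference of 1 is a doubling, and a call means a limma p value, adjusted by Benjamini-Hochberg over all probe sets, below 0.05. Across the whole array 185 of 25428 probe sets, or 0.728%, were called (0.299% higher and 0.429% lower in cKO), against 1 higher and 1 lower among the 9 genes. In 3 of the 9 genes (Maf, Cxcr4 and Erbb4) the arrays of the genotypes did not overlap, which held for 1.38% of all probe sets (0.562% with cKO above and 0.822% with cKO below). The genes were put together with results of these arrays known, so these counts are not independent evidence. The median change was 0.014 over the 9 genes and -0.000773 over all probe sets. All 9 genes lay above 5.71, the median of all values, and even the lowest of them was at the 71.3rd percentile of mean level. In a bulk sample, fewer cells of a type and less RNA per cell cannot be told apart.

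**Figure D1:**
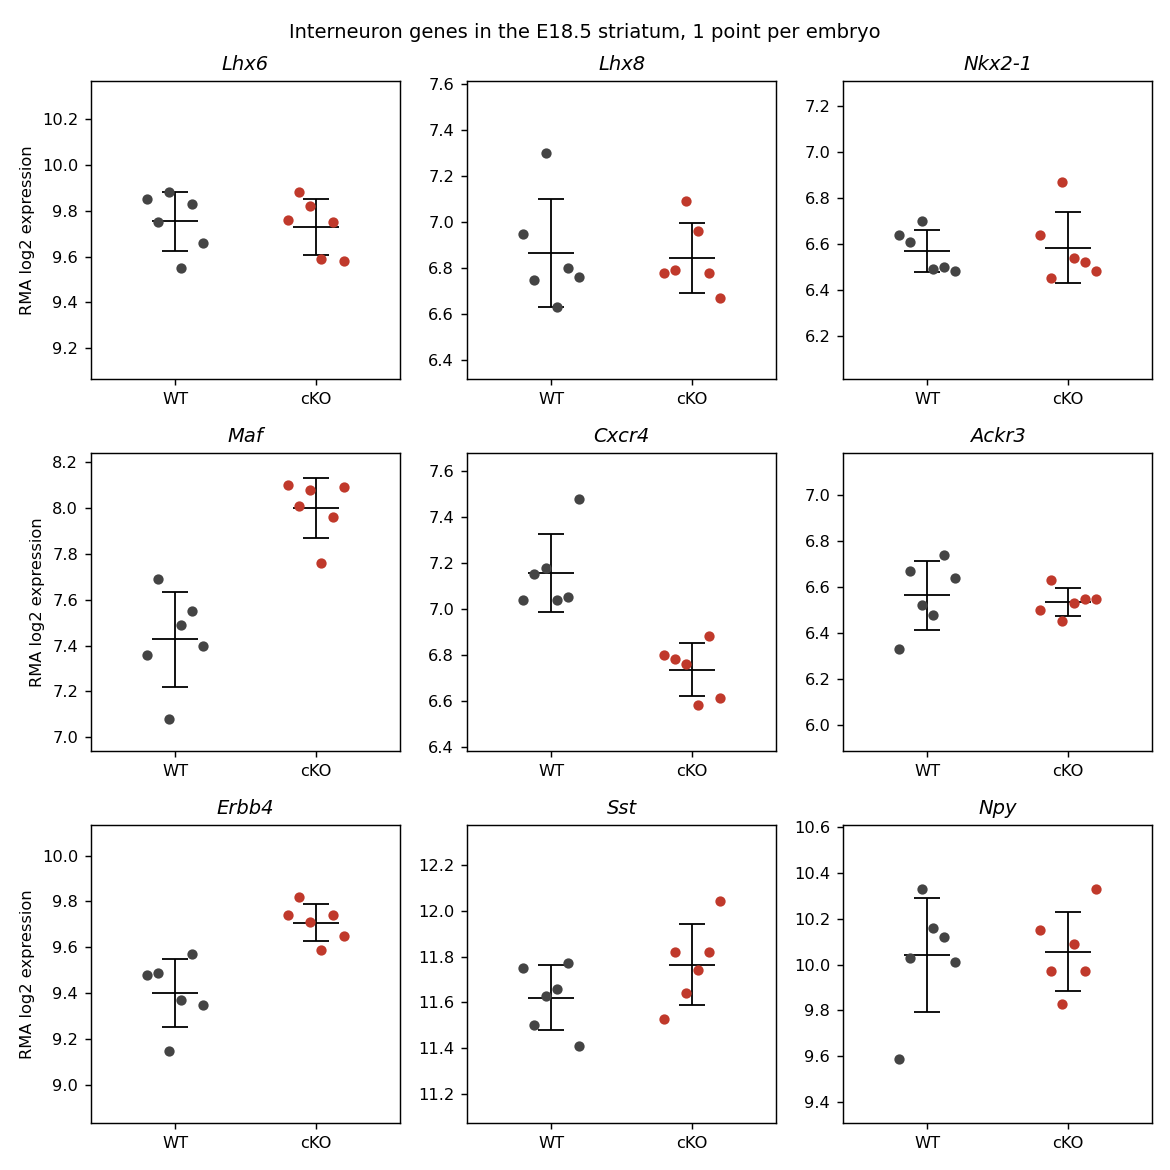
Each panel plots the RMA log2 expression of 1 gene (vertical axis, all panels spanning the same number of log2 units) in the 6 WT embryos (grey) and the 6 cKO embryos (red), with the mean and SD as bars. The groups are separate for Maf, Cxcr4 and Erbb4 and overlap in the other 6 panels.

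As a check of the labels, Foxp1 read 10.89 to 11.39 in WT and 10.14 to 10.36 in cKO, a change of -0.91 ± 0.07 (SE; limma adjusted p = 0.000170). Every cKO array lay below every WT array. Markers of striatal projection neurons, the main cell type of the tissue, were present: Ebf1 averaged 11.51 and Bcl11b 10.82 in WT.

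The available RefSeq promoter sequences are shown for the genes whose groups were separate. The table of RefSeq promoter windows (assembly GRCm38.p6) held 8 of the 9 genes, not Maf. The 250 bases before the start used for each window are given 5′ to 3′ on the gene's strand, with CpG dinucleotides in capitals. The Cxcr4 stretch is chr1:128592300-128592549 on the minus strand and the Erbb4 stretch chr1:69108060-69108309 on the minus strand. The RefSeq Cxcr4 gene has its 5′ end at 128592299, next to its stretch. The RefSeq Erbb4 gene has its 5′ end at 69108576, so the Erbb4 stretch lies inside the gene and not before it.
Cxcr4: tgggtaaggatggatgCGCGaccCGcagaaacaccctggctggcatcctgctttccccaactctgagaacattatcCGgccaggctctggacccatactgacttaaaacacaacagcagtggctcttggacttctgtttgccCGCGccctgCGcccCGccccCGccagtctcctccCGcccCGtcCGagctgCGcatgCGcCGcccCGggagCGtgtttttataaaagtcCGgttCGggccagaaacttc
Erbb4: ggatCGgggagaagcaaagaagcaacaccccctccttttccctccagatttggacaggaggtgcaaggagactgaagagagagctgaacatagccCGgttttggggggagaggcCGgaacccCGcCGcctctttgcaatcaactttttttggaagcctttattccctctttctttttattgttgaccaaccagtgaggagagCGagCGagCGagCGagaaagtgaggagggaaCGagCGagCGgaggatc
The Cxcr4 stretch holds 19 CpG dinucleotides and the Erbb4 stretch 12, against a median of 6 over the same 250 bases of the 32851 windows of the table, whose middle 50% ran from 2 to 16. Forkhead factors such as Foxp1 are known to bind motifs with the core TGTTTA, of which TGTTTAC is a longer form. Searched on both strands in windows of 300 bases (250 before to 50 after the start), neither motif was found in any of the 10 windows of the 8 genes, Lhx6 having several. The windows of Lhx6, Erbb4 and Sst lie inside the RefSeq gene. For these genes the sequence before the 5′ end of the gene was not searched. Of all windows, 13.4% held TGTTTA and 3.65% TGTTTAC. The search says only that these letters are not in these windows, and no binding was measured here.

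Among the transcription factors, Maf was the called gene. Maf encodes a large basic leucine zipper factor that is kept in Sst and parvalbumin interneurons as they mature. Maf in WT replicates 1 to 6 was at 7.36, 7.69, 7.08, 7.49, 7.55 and 7.40. In cKO replicates 1 to 6 the values were 8.10, 8.01, 8.08, 7.76, 7.96 and 8.09. All 6 cKO arrays were above the highest WT array, the closest being cKO replicate 4. WT arrays averaged 7.43 ± 0.21 (SD, n = 6), against 8.00 ± 0.13 (SD, n = 6) for cKO, a rise of 0.57 ± 0.09 (SE) or 1.49-fold, with a 95% interval of 0.37 to 0.78 (limma adjusted p = 0.0150). Ranked by p, Maf was number 88 of all probe sets. The call held without each single array in turn, with a limma adjusted p from 0.0112 to 0.0444. Without cKO replicate 1, 2, 3, 5 or 6 it was close to the threshold, at 0.0408 to 0.0444. The call was lost with the level of cortical or of neuroblast markers as a covariate (adjusted p = 0.0821 and 0.0987). It was also lost with the replicate number as a block (limma adjusted p = 0.119).

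Lhx6, the LIM homeodomain factor that maintains the GABAergic interneuron lineage, read 9.55 to 9.88 in WT and 9.58 to 9.88 in cKO. The arrays of both genotypes spanned nearly the same range, and 3 of 6 cKO arrays were above the WT mean. The change was -0.02 ± 0.07 (SE), with a 95% interval from -0.17 to 0.12 (limma adjusted p = 0.939). Lhx8, its paralog in cholinergic neurons, had a median of 6.78 in either group, with 6.63 to 7.30 in WT and 6.67 to 7.09 in cKO. The highest array in WT was replicate 3 and the highest in cKO also the one numbered 3. The change was -0.02 ± 0.11 (SE; interval -0.25 to 0.21; limma adjusted p = 0.971). Nkx2-1, the factor that sets up the medial eminence, read 6.48 to 6.70 in WT and 6.45 to 6.87 in cKO, and changed by 0.01 ± 0.07 (SE; interval -0.14 to 0.16; limma adjusted p = 0.967). Its highest array was again cKO replicate 3. These intervals reach from -0.25 to 0.21 log2 units, so the data do not show that the 3 factors were equal between genotypes.

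The 3 factors were also compared with each other within arrays. The difference between Lhx8 and Lhx6 was -2.89 ± 0.16 (SD, n = 6) in WT, compared with -2.88 ± 0.17 (SD, n = 6) for cKO (two-sided exact permutation p = 0.976 over all assignments of the arrays to groups). After each group's mean was subtracted, Lhx8 and Nkx2-1 varied together over the 12 arrays, with Pearson r = 0.72 (permutation p = 0.00340, adjusted p = 0.0272 over 8 pairs) and Spearman rho = 0.60 (permutation p = 0.0441, adjusted p = 0.176). Within groups r was 0.82 in WT and 0.78 in cKO. Without WT replicate 3 and cKO replicate 3, the arrays farthest from the median of Lhx8, r was 0.39, so the relation rests on those arrays. For Lhx6 and Lhx8 r was 0.55 (permutation p = 0.0772, adjusted p = 0.309) and rho 0.71 (permutation p = 0.0159, adjusted p = 0.127), with r = 0.33 when WT replicate 4 and cKO replicate 6 were left out. For Lhx6 and Nkx2-1 r was 0.44 (permutation p = 0.170, adjusted p = 0.453) and rho 0.38 (permutation p = 0.248, adjusted p = 0.496), with r = 0.31 without the same arrays. The pairs Sst and Npy, Cxcr4 and Ackr3, and Lhx6 with Maf, Cxcr4 or Erbb4 had r from -0.11 to 0.29 and rho from -0.20 to 0.39. Permutation p values for r in these 5 pairs ran from 0.396 to 0.766 and for rho from 0.233 to 0.860, with an adjusted p of 0.766 for r in each and from 0.496 to 0.860 for rho. Without the 2 farthest arrays, r in these 5 pairs ran from -0.20 to 0.23. Within-group r, over 6 arrays each and given as a description, was 0.78 in WT and 0.22 in cKO for Lhx6 and Lhx8, -0.01 and 0.90 for Lhx6 and Erbb4, -0.21 and 0.76 for Lhx6 and Cxcr4, and -0.41 and 0.39 for Lhx6 and Maf. The differences between genotypes were not tested.

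Among the receptors, the pair that binds Cxcl12 did not move alike. Cxcr4 is the G protein-coupled receptor that transmits the Cxcl12 signal, and Ackr3 is an atypical receptor that takes up Cxcl12 and keeps migrating cells responsive to it. Cxcr4 in WT replicates 1 to 6 read 7.04, 7.15, 7.18, 7.04, 7.05 and 7.48. In cKO replicates 1 to 6 it read 6.80, 6.78, 6.76, 6.58, 6.88 and 6.61. All 6 cKO arrays were below the lowest WT array, and WT replicate 6 was well above the rest of its group. WT arrays averaged 7.16 ± 0.17 (SD, n = 6), against 6.74 ± 0.12 (SD, n = 6) for cKO, so Cxcr4 fell by 0.42 ± 0.08 (SE) on the log2 scale or 1.34-fold, with a 95% interval from -0.59 to -0.25 (limma adjusted p = 0.0341). The call was close to the threshold. Leaving out WT replicate 2 or 3 gave an adjusted p of 0.0692 or 0.0652, and it came to 0.0604, 0.0725, 0.0765, 0.0613 and 0.0839 without cKO replicate 1, 2, 3, 4 or 6. It was 0.0940 without WT replicate 3 and cKO replicate 4, the arrays least correlated with their group, while the change ran from -0.435 to -0.386 in all of these.

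Ackr3 in WT replicates 1 to 6 read 6.33, 6.67, 6.52, 6.48, 6.74 and 6.64, and in cKO replicates 6.50, 6.63, 6.45, 6.53, 6.55 and 6.55. The cKO arrays all fell inside the WT range. The change was -0.03 ± 0.06 (SE), with an interval from -0.16 to 0.11 (limma adjusted p = 0.920). The within-array difference of Cxcr4 and Ackr3 was 0.60 ± 0.19 (SD, n = 6) in WT, compared with 0.20 ± 0.13 (SD, n = 6) for cKO, and ran from 0.32 to 0.85 against 0.05 to 0.33. The shift of -0.40 had a two-sided exact permutation p of 0.00433 (adjusted p = 0.0130 over 3 pairs; the smallest p these arrays allow is 0.00216). Cxcr4 thus shifted by a different amount from Ackr3, and the difference passed without each single array too. The Cxcr4 change is part of this difference, and the genes were chosen with earlier results of these arrays known. The permutation test is therefore not evidence independent of the Cxcr4 call. A further planned pair, of Maf with a paralog, was not analysed here.

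Erbb4, the receptor tyrosine kinase for neuregulins on migrating interneurons, was just short of a call. Its values were 9.48, 9.49, 9.15, 9.37, 9.57 and 9.35 in WT replicates 1 to 6, and in cKO replicates 9.74, 9.82, 9.71, 9.59, 9.74 and 9.65. All 6 cKO arrays were above every WT array, by as little as 0.01 between cKO replicate 4 and WT replicate 5. WT arrays averaged 9.40 ± 0.15 (SD, n = 6), against 9.71 ± 0.08 (SD, n = 6) for cKO, a difference of 0.31 ± 0.07 (SE) with an interval of 0.16 to 0.45 (limma adjusted p = 0.0603, and 0.000555 before adjustment). It passed when dim probe sets were left out (adjusted p = 0.0223), with a trended, robust prior (adjusted p = 0.0204), without WT replicate 3 or 5 (adjusted p = 0.0475 and 0.0369), and without the least correlated array of each group (adjusted p = 0.0397). In the other 17 of 22 alternatives it did not pass, with an adjusted p of up to 0.243.

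**Figure D2:**
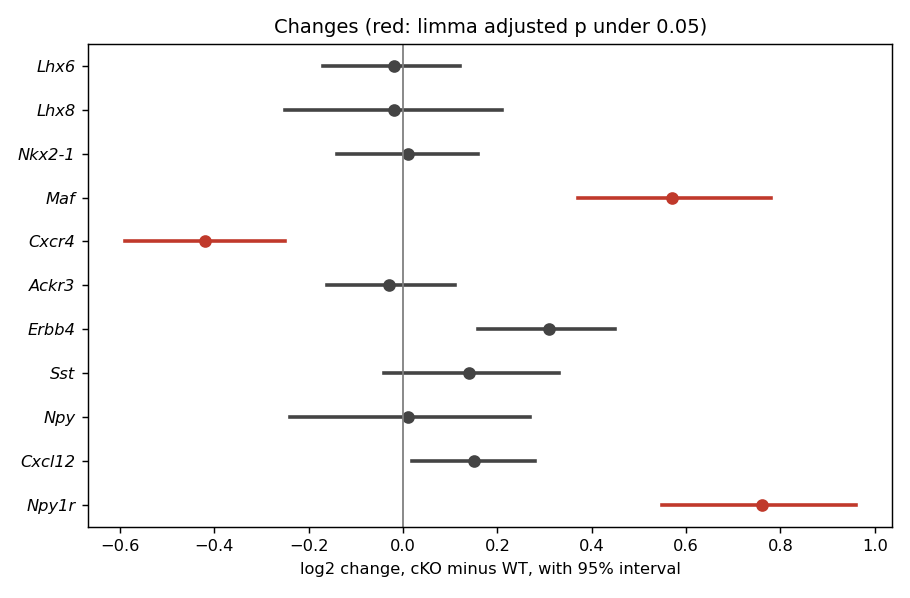
Points give the log2 change, cKO minus WT, and bars its 95% limma interval for the 9 genes, the ligand gene Cxcl12 and the receptor gene Npy1r; red marks an adjusted p below 0.05. Maf (0.57) and Npy1r (0.76) lie to the right and Cxcr4 (-0.42) to the left, while Erbb4 (0.31) has an interval above 0 without passing after adjustment.

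The peptide genes Sst and Npy gave no call. Sst, encoding somatostatin, read 11.75, 11.50, 11.63, 11.66, 11.77 and 11.41 in WT replicates 1 to 6 and 11.53, 11.82, 11.64, 11.74, 11.82 and 12.04 in cKO. The ranges overlapped, with 3 of 6 cKO arrays above the highest WT array and 1 of 6 below the WT mean. The difference was 0.14 ± 0.09 (SE), with an interval from -0.04 to 0.33 (limma adjusted p = 0.596). With the cortical covariate it was 0.06 and with the neuroblast covariate 0.32 (adjusted p = 0.0886), both without a call. Npy, encoding neuropeptide Y, read 9.59 to 10.33 in WT and 9.83 to 10.33 in cKO, and WT replicate 1 was its lowest array. The difference was 0.01 ± 0.12 (SE), with an interval from -0.24 to 0.27 (limma adjusted p = 0.980). The shift of Sst relative to Npy within arrays was 0.13 (two-sided exact permutation p = 0.396, adjusted p = 0.594).

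Direct partners of the receptors and peptides were looked at next. Cxcl12, the ligand of Cxcr4 and Ackr3, lay near the median of all values at 5.88 ± 0.09 (SD, n = 6) in WT, compared with 6.03 ± 0.13 (SD, n = 6) for cKO. Its difference was 0.15 ± 0.06 (SE; limma adjusted p = 0.373), and 4 of 6 cKO arrays were above the highest WT array. Npy1r, a receptor for neuropeptide Y, rose by 0.76 ± 0.09 (SE), from a WT range of 6.40 to 6.98 to a cKO range of 7.41 to 7.70 (limma adjusted p = 0.00353). Of the 10 somatostatin and neuropeptide Y receptor genes, Npy1r rose and 0 fell, and the list's median change was 0.031. Of 18 measured ligands and signalling partners of the chemokine receptors 0 passed in limma over all genes, with 3 higher and 2 lower before adjustment (p under 0.05, which 2729 probe sets or 10.7% of the whole array reached) and a median of 0.0092. Values were 0.26 ± 0.07 (SE) for the G protein subunit gene Gnai1 (adjusted p = 0.109) and -0.12 ± 0.05 for the arrestin gene Arrb1 (adjusted p = 0.366). Of 12 measured neuregulin and ErbB genes 0 passed in limma, with 1 higher and 0 lower before adjustment (p under 0.05) and a median of 0.0042. The Erbb4 ligand genes Nrg3 and Nrg1 had values of 0.27 ± 0.10 (adjusted p = 0.328) and -0.15 ± 0.09 (adjusted p = 0.595).

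Other genes of interneuron development and identity gave 0 rises and 2 falls over all probe sets, those of Mef2c and Reln. On the whole array, 0.299% of probe sets were called higher and 0.429% lower. Of 23 measured lineage and maturation genes, 0 rose and 1 fell: Mef2c, a MADS-box factor of maturing interneurons and of other neurons, by 0.44 ± 0.08 (SE), with all cKO arrays below WT (limma adjusted p = 0.0429). Mef2c passed in 8 of 22 alternatives, and without any 1 WT array, or without cKO replicate 1, 4 or 5, its adjusted p was 0.0504 to 0.113. The list's median was 0.063, with 17 positive and 6 negative changes, and 5 higher and 2 lower before adjustment (p under 0.05). Of 18 measured genes of striatal interneuron output, 0 rose and 1 fell. That gene was Reln, which encodes the secreted protein reelin and is made by several interneuron classes, and it fell by 0.45 ± 0.06 (SE), from 8.84 ± 0.11 (SD, n = 6) in WT to 8.39 ± 0.10 (SD, n = 6) in cKO (limma adjusted p = 0.00447). The median of that list was 0.00031. Among 10 genes of interneurons from the caudal and lateral eminences 0 passed in limma, with 1 higher and 0 lower before adjustment (p under 0.05) and a median of 0.039. Values were 0.15 ± 0.06 for Npas3 (adjusted p = 0.415) and 0.08 ± 0.04 for Sp8 (adjusted p = 0.521).

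The families of the factors were also measured. Of 16 LIM homeodomain and LIM partner genes 0 passed in limma, with 1 higher and 4 lower before adjustment (p under 0.05) and a median of -0.011. The lowest p was that of Ldb2, a cofactor that bridges LIM homeodomain proteins, at -0.28 ± 0.06 (adjusted p = 0.0588). Lmo2, a LIM-only factor, had a value of -0.29 ± 0.08 (adjusted p = 0.126). Of 9 measured Maf-family and partner genes 0 passed in limma, with 1 higher and 0 lower before adjustment (p under 0.05) and a median of 0.00053, and Bach1, a partner of the small Maf proteins, had a value of 0.19 ± 0.05 (adjusted p = 0.0999) and Maff one of 0.04 ± 0.02 (adjusted p = 0.596). Of 11 Nkx2 and Shh response genes 0 passed in limma, with 1 higher and 0 lower before adjustment (p under 0.05) and a median of 0.0017, only 3 of them lying above the median of all values. Hhip, an antagonist of Shh, had a value of 0.06 ± 0.02 (adjusted p = 0.219) and Gli1, a readout of Shh signalling, one of 0.03 ± 0.02 (adjusted p = 0.580). Over the 9 lists together 125 of 134 different genes had a named probe set, 1 rose, 2 fell, and the median change was 0.0086. Before adjustment 17 were higher and 9 lower (limma p under 0.05). Of all probe sets, 0.299% were called higher and 0.429% lower, and 10.7% reached an unadjusted p under 0.05. The lists were chosen with earlier results of these data known, so these counts are not independent evidence.

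Markers of other cells were measured on the same arrays, and the levels of 3 of their lists are given beside Maf, Cxcr4 and Erbb4. The migrating neuroblast list (8 genes measured, all 8 above the median of all values) had summed levels of 75.8 to 77.6 in WT and 76.7 to 78.1 in cKO. All 8 of its changes were positive, but 0 passed in limma over all genes and 4 were higher before adjustment (p under 0.05). Its leading genes Dcx and Dlx5 had values of 0.08 ± 0.02 (adjusted p = 0.128) and 0.17 ± 0.06 (adjusted p = 0.279). The cortical glutamatergic list (8 genes measured) had sums of 47.8 to 50.8 in WT, against 47.7 to 52.8 for cKO, with 8 positive changes, 0 passing in limma and 2 higher at an unadjusted p under 0.05. Its leading genes were Tbr1, at 0.34 ± 0.20 (adjusted p = 0.587), and Neurod2, at 0.41 ± 0.18 (adjusted p = 0.410). The projection neuron list (13 genes measured) had sums of 111.2 to 115.7 in WT, against 109.3 to 111.9 for cKO, with 2 called lower and 0 higher, 7 lower and 1 higher before adjustment (p under 0.05), 9 negative and 4 positive changes, and a median of -0.22. The called genes were Ikzf1 (-0.59 ± 0.07; limma adjusted p = 0.00353) and Pde10a (-0.59 ± 0.09; adjusted p = 0.00869), named after their values were seen. Over the whole array, 0.429% of probe sets were called lower, and 10.7% reached an unadjusted p under 0.05 in either direction. The leading genes of the list were Ebf1 at -0.22 ± 0.07 (adjusted p = 0.243) and Bcl11b at -0.12 ± 0.06 (adjusted p = 0.503).

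**Figure D3:**
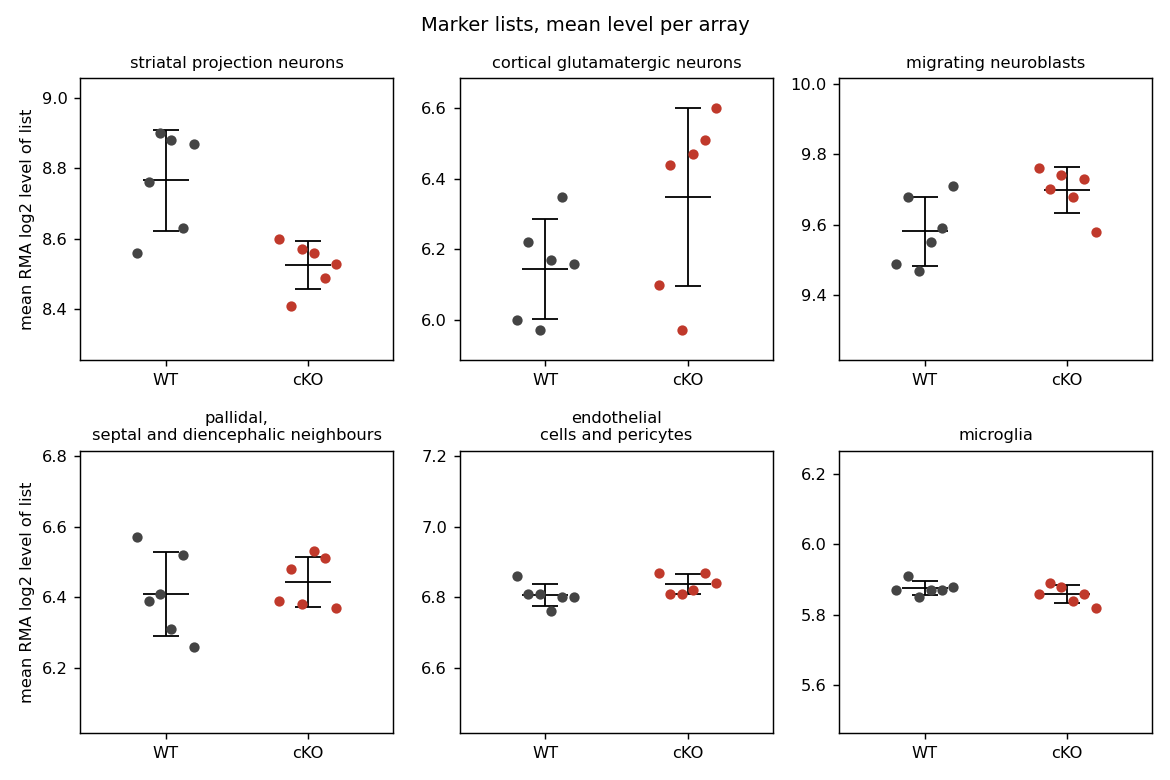
Each panel plots the mean RMA log2 level of 1 marker list (vertical axis, all panels spanning the same number of log2 units) on each WT (grey) and cKO (red) array, with the mean and SD as bars. The projection neuron list averaged 8.77 in WT and 8.53 in cKO, the cortical list 6.15 and 6.35, and the neuroblast list 9.58 and 9.70, and the groups overlap in all 6 panels.

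With the level of the cortical list as a covariate, the change was 0.55 for Maf (limma adjusted p = 0.0821), -0.40 for Cxcr4 (adjusted p = 0.156) and 0.28 for Erbb4 (adjusted p = 0.229). With the neuroblast list, a covariate added later, it was 0.45 for Maf (adjusted p = 0.0987), -0.56 for Cxcr4 (adjusted p = 0.0113) and 0.24 for Erbb4 (adjusted p = 0.243). The directions were kept, the Maf call was lost in both fits, and the Cxcr4 call was lost with the cortical list.

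Lists of vessel, immune and neighbouring cells, which can also express Cxcr4, Ackr3, Lhx8 or Nkx2-1, gave no call in limma over all genes. The endothelial and pericyte list (10 genes) summed to 67.6 to 68.6 in WT and 68.1 to 68.7 in cKO, with 2 higher and 1 lower before adjustment (p under 0.05). Its leading genes were Rgs5 (0.09 ± 0.06) and Pdgfrb (0.13 ± 0.05; adjusted p = 0.377). The microglial list (8 genes) summed to 46.8 to 47.3 and 46.6 to 47.1, with 1 lower at an unadjusted p under 0.05. Cx3cr1 averaged 6.41 in WT and 6.42 in cKO, and Csf1r 5.93 in either group, close to the median of all values. The meningeal list (7 genes, of which 1 was above the median of all values) summed to 39.0 to 39.2 and 38.9 to 39.4, with Col1a1 at 5.87 and 5.85 and Col1a2 at 5.68 and 5.71, and had 0 genes at an unadjusted p under 0.05. The oligodendrocyte precursor list (6 genes) summed to 39.5 to 41.3 and 40.0 to 40.6, with 1 lower at an unadjusted p under 0.05, Olig2 at 0.03 ± 0.12 and Pdgfra at 0.02 ± 0.09. The pallidal, septal and diencephalic list (9 genes) summed to 56.3 to 59.1 and 57.3 to 58.8, with 0 genes at an unadjusted p under 0.05, Zic1 at 0.07 ± 0.17 and Lhx2 at 0.09 ± 0.11. With that list as a covariate Maf (adjusted p = 0.0192) and Cxcr4 (adjusted p = 0.0373) passed in limma.

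**Figure D4:**
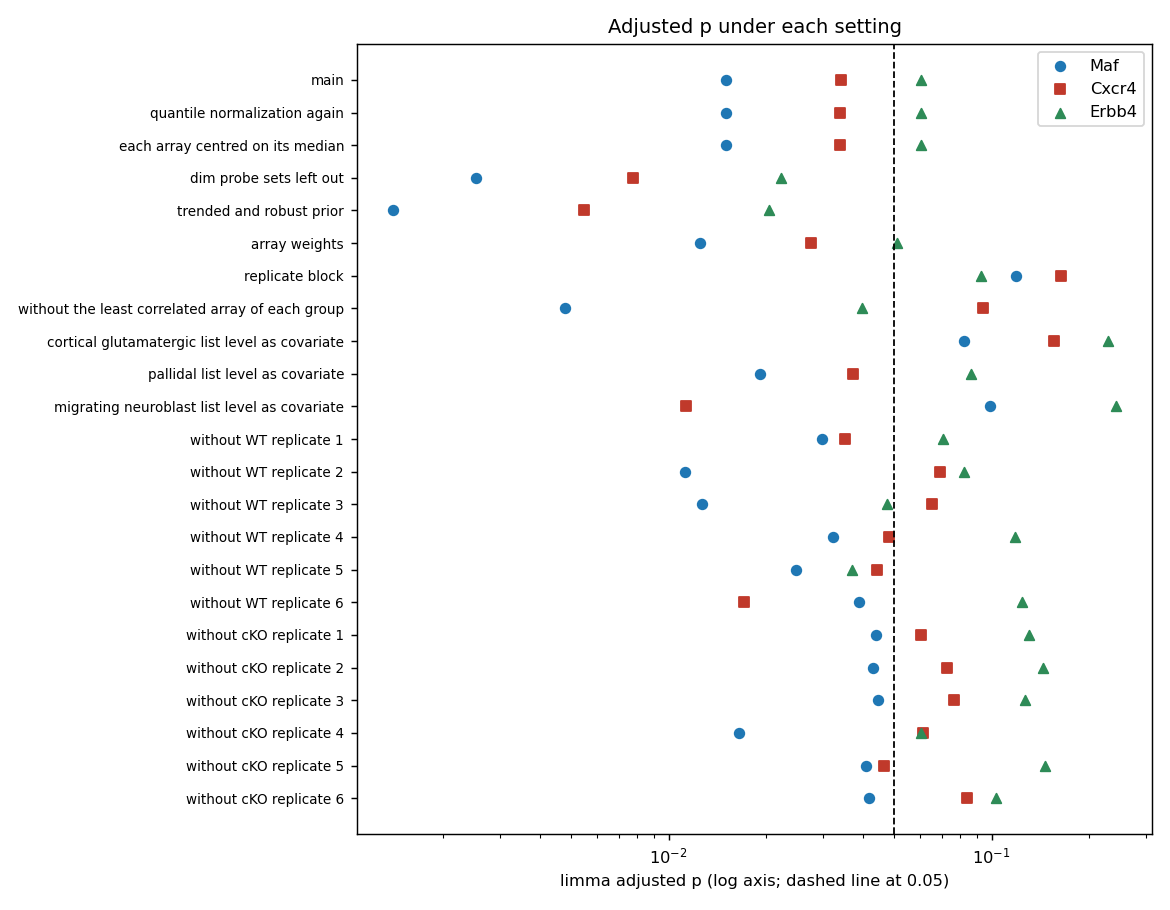
The horizontal log axis gives the limma adjusted p of Maf (circles), Cxcr4 (squares) and Erbb4 (triangles) under the fit as reported (main) and each alternative, with a dashed line at 0.05. Maf passed in 19 of 22 alternatives, Cxcr4 in 12 and Erbb4 in 5.

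The probe sets whose deviations from the group means were most like those of a called gene or of Lhx6 over the 12 arrays were ranked by Pearson r among 12285 named probe sets above the median level. The values are a description, since the highest of so many is chosen. For Cxcr4 they were Frmd6 (r = 0.93), Fzd1 (r = 0.90) and Yy1 (r = 0.90). Frmd6, which encodes a FERM domain protein, also fell in cKO, by 0.53 (limma adjusted p = 0.00859). The group means were subtracted before r was computed, so that fall is not part of the likeness. Fzd1 had a change of 0.00 (adjusted p = 0.992) and Yy1 one of 0.02 (adjusted p = 0.935). For Maf they were H1f5, Snord68 and Sdccag8 (r = 0.89 each), and for Lhx6 Hilpda (r = 0.88), Rufy3 (r = 0.87) and Naif1 (r = 0.87). None of these 6 passed in limma over all genes, with an adjusted p from 0.344 to 0.974.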

How the data were processed

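Total RNA of 12 striata was measured on 1-colour arrays, 6 per genotype. The authors deposited log2 expression values made with RMA, which the submitters' processing notes name. RMA corrects background, gives arrays a common distribution and summarises each probe set, so a change shared by all genes is not visible and differences of dim genes are compressed. Sorted columns differed by at most 0.00187. Array model and probe positions were not given in the sources. The number of arrays limits the precision. Symbols came from the platform annotation, updated through RefSeq (GRCm38.p6), and 754 probe sets stayed unnamed.

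The genotype comparison used lmFit and eBayes of limma 3.58.1 (R 4.3.3, two-sided) over all 25428 probe sets and 12 arrays, without filter or covariate. Tested on simulated data, 200 changed probe sets in 25428 (cKO minus WT), the fit recovered 78.2%, 97.1% and 99.7% of changes of 0.25, 0.5 and 1 log2 units. The SD within groups had a median of 0.0469 over all probe sets. In the interneuron genes named at the start it was larger, from 0.114 (Ackr3) to 0.215 (Npy). The recovery rates therefore do not give the power for those genes, including the ones not called. Pairs of genes were compared by exact permutation over all assignments of the arrays, and correlations by 100000 permutations within groups.

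The 9 genes, 9 lists of related genes and 8 marker lists were chosen with earlier results of these data known. Named from each related list are the called genes, at most 4 by size of change, or if there were none the 2 of lowest p, and from each marker list the 2 with the highest level. Alternatives were another normalization, centring, a filter on dim probe sets, other priors and weights, a replicate block, covariates and leaving out arrays.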

Additional observations from a re-analysis of the deposited data

Results flagged for a closer look

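Cxcr4 in WT replicate 6 read 7.48, while the other WT arrays lay between 7.04 and 7.18. The gap to its nearest neighbour was 0.682 of the range of the group, above Dixon's 95% critical value of 0.625 for 6 samples. It was the single such array among 20 groups of values examined (the 9 genes and Foxp1 in both genotypes), and chance flags about 1 in 20. Without this array the Cxcr4 change was -0.36 and passed in limma (adjusted p = 0.0171).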

How the results depend on the processing

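The counts above refer to 22 alternatives, 21 of them planned and 1, the neuroblast covariate, chosen after seeing the data. The total of 185 called probe sets was 278 with dim probe sets left out, 64 with the replicate block and 91 with the cortical covariate, and ran from 106 to 227 when each array was left out (106, 117 and 109 without cKO replicate 2, 3 or 5). Of the 9 genes, 2 were called in the reported fit, 0 with the replicate block, 0 with the cortical covariate, 1 with the neuroblast covariate and 1 to 3 when each array was left out. The Maf change was 0.575 with the replicate block (limma adjusted p = 0.119), 0.552 with the cortical and 0.454 with the neuroblast covariate, and ran from 0.505 to 0.627 when each array was left out. The Cxcr4 change was -0.421 with the replicate block (limma adjusted p = 0.164), -0.386 without the least correlated array of each group and -0.395 with the cortical covariate, and ran from -0.450 to -0.356 when each array was left out. Same-numbered arrays correlated at -0.22 to 0.15 in their deviations from the group means. The labels do not say whether arrays of the same number share a litter or a batch, and these correlations cannot settle it. No WT array correlated best with the cKO array of its own number. The calls of Npy1r (limma adjusted p = 0.0718) and Reln (adjusted p = 0.0584) missed the threshold with the replicate block and passed in the other 21 alternatives. The Cxcr4 and Ackr3 difference passed in 13 of 13 alternatives, which were a repeated quantile normalization and leaving out each array. It was not run with the replicate block, with a covariate or without the least correlated array of each group, where the Cxcr4 call itself was lost in some fits.

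Signs turned for genes with changes near 0, in each case without a call. Without the least correlated array of each group the change was 0.030 for Lhx6 and 0.044 for Lhx8. With the cortical covariate it was 0.029 for Lhx6, 0.095 for Lhx8 and -0.055 for Npy, and with the neuroblast covariate 0.072 for Lhx8. When each array was left out, it ran from -0.063 to 0.007 for Lhx6, -0.069 to 0.067 for Lhx8, -0.042 to 0.041 for Nkx2-1, -0.073 to 0.009 for Ackr3, -0.076 to 0.073 for Npy, and -0.048 to 0.064 for Lhx8 relative to Lhx6. The cause of these moves was not tested, and the compression of RMA values near the lower end limits what can be seen for Cxcl12.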
